A study of Mus musculus with 24 samples.

Results

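Transcytosis is the carriage of molecules across the endothelial cell inside vesicles, and the endothelium of the blood–brain barrier is known for keeping it low. Vesicles can form at caveolae, small coated pits built on caveolins, or at clathrin-coated pits, where receptors for transferrin, insulin, IGF and lipoproteins gather their ligands. Mfsd2a, a lipid transporter of brain endothelial cells, is known to hold the caveolar route in check. The 10 genes described here were taken by symbol, all from a table of 53465 genes: Mfsd2a; the caveolins Cav1 and Cav2; Plvap, the protein of the diaphragms of caveolae and fenestrae; Tfrc, the transferrin receptor; Insr and Igf1r, the insulin and IGF-1 receptors; Lrp1 and Lrp8, endocytic receptors for lipoproteins and other ligands; and Ager, the receptor for advanced glycation end products. All 10 of 10 passed the filter that left 15493 genes for testing, under which a gene needed a minimum of 5 reads in 6 libraries of the same genotype.

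Brain endothelial cells were sorted by CD31 from single mice and their RNA was sequenced, 1 library per mouse. The 12 control mice were Bmal1fl/fl, so that they carried the floxed allele with no Cre. The 12 mutant mice were Bmal1fl/fl; Tie2-cre, in which Cre under the Tie2 promoter deletes a floxed exon of the clock gene Bmal1 (listed as Arntl) in endothelial cells. Mice were taken at Zeitgeber time (ZT) 2, 6, 10, 14, 18 and 22, 2 of each genotype per time, with lights on at ZT0 and off at ZT12. All were on the C57BL/6J background, and both sexes were used; ages are not given in the sources used here. The Tie2 promoter is known to be active in endothelium outside the brain and in some blood cells, so the deletion is not confined to the cells that were sorted.

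Totals were 6136404 to 6648311 normalized reads per library, after a normalization that had brought the libraries together, so that the original depth is not in the values. Endothelial markers were present in every library (12 of 12 tested, 10123 to 17999 CPM summed, where CPM is the count scaled to a common library total). Arntl had 1 to 468 reads in controls (median 166.5) and 81 to 354 in mutants (median 242.5). A gene count that includes exons outside the deleted one cannot check the deletion. The 8 libraries of ZT6 and ZT18, 4 of each genotype, stood apart from the other 16 libraries. They carried a run of library numbers of their own, and mitochondrial genes held 2.68% to 3.9% of their reads against 5.78% to 17.4% in the others. The summed level of 60 markers of 10 other cell types was 5881 to 7448 CPM in them against 9363 to 20999. For microglia, all 7 of 7 markers had a lower mean in the ZT6 and ZT18 libraries, and their sum was 167 to 274 against 1437 to 3946 CPM; none of the 7 was at 0 throughout. Pericyte markers (8 of 8), smooth muscle markers (5 of 5) and the endothelial markers (12 of 12) had higher means in them. In sorted cells, fewer cells of a type and less RNA per cell cannot be told apart. Genotype was balanced within the ZT6 and ZT18 libraries. The i5 sequencing index, however, differed between genotypes at ZT2 and ZT10, where it was A in controls and B in mutants. It was shared at the other times. With time and the index both in a fit, the genotype difference therefore rests on ZT6, ZT14, ZT18 and ZT22. Without ZT6 and ZT18 it rests on ZT14 and ZT22. Among mutants only ZT6 and ZT18 had index A, and among controls only ZT14 and ZT22 had index B. Within a genotype these times and the index cannot be told apart. Because the ZT6 and ZT18 libraries stood apart, genotype, time and level results are also given without them. The rhythm tests within a genotype were run on all 6 times.

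BMAL1 is known to act through E-boxes, so the promoters of the 10 genes were read first. RefSeq windows (GRCm38.p6) from 250 bases before to 50 bases after the start were found for 8 of the 10 genes, with no entry for Plvap and Insr. Cav1 and Tfrc had 2 such windows and Lrp8 had 3, and a single window of each gene is described here. These 8 windows were searched on both strands for the E-box CACGTG, the related CACGTT and the D-box TTATGTAA, which do not overlap one another. The single match in the 8 windows was in Mfsd2a, where the reverse of CACGTT began 108 bases before the start. Of 32817 windows of the same length, 7.15% held CACGTG, 4.69% CACGTT and 0.935% TTATGTAA. The 250 bases before the start are printed for Mfsd2a, the gene with the match, and for Tfrc. Tfrc had the lowest mutant level relative to control, and its window described here holds none of the motifs. Capitals mark the match.
Mfsd2a, chr4:122961189-122961438, minus strand: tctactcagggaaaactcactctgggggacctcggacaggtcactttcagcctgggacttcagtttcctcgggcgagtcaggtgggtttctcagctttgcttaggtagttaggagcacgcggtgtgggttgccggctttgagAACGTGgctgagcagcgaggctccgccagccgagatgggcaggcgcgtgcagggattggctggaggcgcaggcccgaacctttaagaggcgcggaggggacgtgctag
Tfrc, chr16:32608646-32608895, plus strand: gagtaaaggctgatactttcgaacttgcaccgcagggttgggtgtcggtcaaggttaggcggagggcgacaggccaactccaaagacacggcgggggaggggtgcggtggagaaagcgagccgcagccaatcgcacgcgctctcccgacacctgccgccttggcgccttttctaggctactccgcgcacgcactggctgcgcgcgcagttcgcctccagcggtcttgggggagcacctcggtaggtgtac

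The first question was how strongly each gene is expressed in control endothelium. Reads were divided by the length of each gene's exons, so that genes could be compared, and are given here as reads per kb. Plvap came first with a mean level of 829 ± 371 reads per kb (SD, n = 12), followed by Mfsd2a with 599 ± 165 and Tfrc with 585 ± 162. Igf1r stood at 417 ± 89.6, Cav1 at 316 ± 97.7 and Cav2 at 248 ± 85.9. Lrp1 had 212 ± 114, Insr 187 ± 31.2 and Lrp8 143 ± 23.7 reads per kb. Ager came last with 5.64 ± 4.49. Each gene was compared with its neighbour in this order within the 12 control libraries, by an exact sign-flip permutation test of the log2 ratio of levels (two-sided, adjusted over the 9 pairs). Of the 9 steps, 4 passed.

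**Figure D1:**
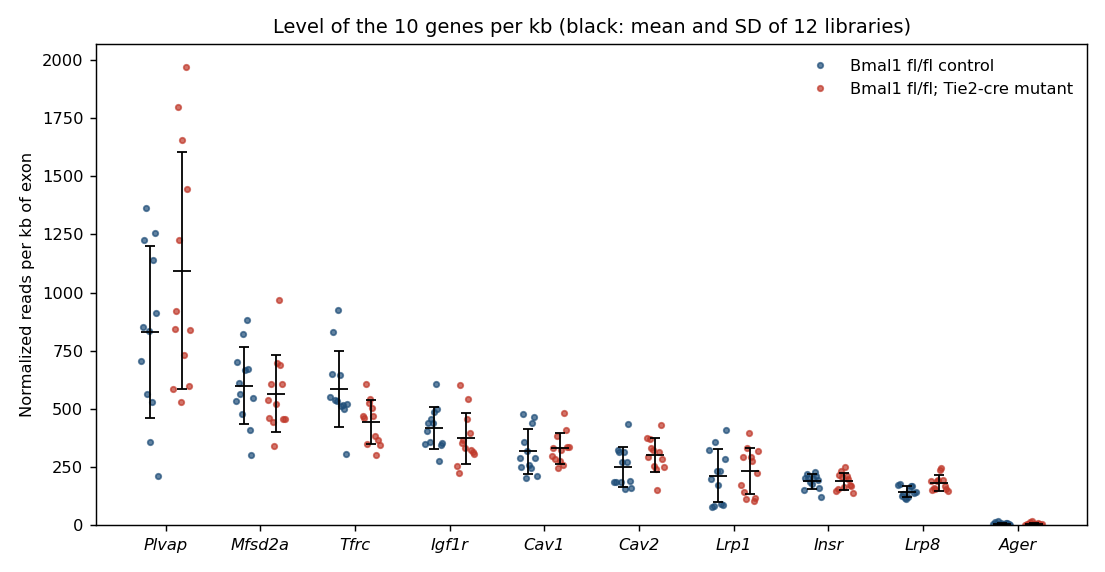
Level of the 10 genes in normalized reads per kb of exon (vertical axis), 1 point per library, with the mean and SD of 12 control and 12 mutant libraries in black. Plvap, Mfsd2a and Tfrc are at the top in controls and Ager, at 5.64 reads per kb, is near 0.

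The steps from Tfrc to Igf1r (log2 ratio 0.47 ± 0.43, SD, adjusted p = 0.0154, exact), from Cav1 to Cav2 (0.36 ± 0.30, 0.0154), from Insr to Lrp8 (0.38 ± 0.36, 0.0154) and from Lrp8 to Ager (4.98 ± 1.32, 0.0044) were larger than the spread. Plvap and Mfsd2a (adjusted p = 0.351, exact), Mfsd2a and Tfrc (0.878), Igf1r and Cav1 (0.0545), Cav2 and Lrp1 (0.422) and Lrp1 and Insr (0.928) did not separate beyond theirs. Cav1 was above its neighbour gene Cav2 in 11 of 12 control libraries. Between control libraries Lrp8 and Insr varied least, with coefficients of variation of 16.5% and 16.7%, and Ager (79.5%) and Lrp1 (53.8%) varied most.

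The order depended on the ZT6 and ZT18 libraries. In the 8 control libraries of the other times, Lrp1 had 275 ± 81.3 reads per kb and stood above Cav1 (257 ± 39.8), Cav2 (205 ± 56.5) and Insr (177 ± 33.9), whereas in the 4 control libraries of ZT6 and ZT18 it had 85 ± 5.95. Plvap had 620 ± 251 reads per kb in the 8 and 1247 ± 92.4 in the 4, so that in the 8 it was level with Mfsd2a (616 ± 190). In the 8 libraries 0 of the 9 steps passed adjustment, where the smallest p that 8 libraries allow is 0.007812 and was reached by the step from Lrp8 to Ager (exact adjusted p = 0.0703). The coefficient of variation of Lrp1 was 29.6% in the 8, and that of Plvap, 40.5%, was the highest after Ager.

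Bmal1 loss was then compared with control over all 24 libraries, with time as a factor (edgeR quasi-likelihood test, Benjamini-Hochberg adjustment over 15493 genes). Of the 10 genes 0 passed an adjusted p of 0.05, against 0.271% of all genes tested (42 genes). At an unadjusted p under 0.05 there were 4 of 10, Cav2, Plvap and Lrp8 higher and Tfrc lower in mutants, against 6.95% of all genes. That count was 2, Tfrc and Lrp8, without replicate 1 of the controls at ZT10 or replicate 1 of the mutants at ZT10. It was up to 5 without another library, against 6.04% to 7.66% of all genes over the fits with 1 library left out. It was 3 with the i5 index as a covariate (Plvap, Tfrc and Lrp8), against 7.22% of all genes. Without ZT14 it was 3 (Cav2, Tfrc and Lrp8), against 6.14%. With the index and without ZT6 and ZT18 it was 2 (Plvap and Lrp8), against 6.12%. No filter on low counts gave 6, against 5.52%. At an adjusted p under 0.05 DESeq2 called 2, Tfrc and Lrp8, against 1.11% of the 8885 genes to which it gave an adjusted p. At that threshold limma called 0, against 0.284% of all genes. At an unadjusted p under 0.05 limma had 4 (Cav2, Plvap, Tfrc and Lrp8), against 7.89% of all genes. DESeq2 had 3 there (Cav2, Tfrc and Lrp8), beside 1348 genes in all. The median log2 fold change of the 10 genes was 0.04, that of all genes 0.0033. The 2 genes with the smallest p are described first.

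Tfrc (chr16:32608920-32632794, plus strand) carries iron-loaded transferrin into the endothelial cell and is the receptor that many brain-delivery antibodies bind. It had 1874 to 5716 reads in controls (median 3310) and 1867 to 3761 in mutants (median 2872.5). The mutant mean was below the control mean at all 6 times, which held for 2.01% of all genes. At ZT2 the controls had 3414 and 4013 reads and the mutants 2899 and 2850. At ZT18 they had 3181 and 3094 against 2355 and 1867. Both mutants lay below both controls at 3 times, as at 3 or more times in 7.12% of all genes, and the ranges overlapped at the others. The level in controls was 1.32-fold that in mutants (log2 fold change −0.40 ± 0.10, SE), with an unadjusted p of 0.000556 and an edgeR adjusted p of 0.116. DESeq2 gave an adjusted p of 0.0199 for Tfrc, and edgeR with the replicate number as a block gave 0.0411. The difference was −0.35 without the ZT6 and ZT18 libraries and −0.52 within them. With the i5 index as a covariate it was −0.40 (adjusted p = 0.379), and with the index and without those libraries −0.28 (unadjusted p of 0.107).

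Lrp8 (chr4:107802261-107876840, plus strand), the apolipoprotein E receptor 2, which also binds reelin, had the smallest p of the 10. It had 1178 to 1841 reads in controls (median 1462.5) and 1535 to 2584 in mutants (median 1868). Both mutants lay above both controls at 4 of 6 times, and 1.47% of all genes had 4 or more such times. The mutant level was 1.26-fold the control level (log2 fold change 0.33 ± 0.08), with an unadjusted p of 0.000367 and an edgeR adjusted p of 0.0888. DESeq2 gave 0.0156. The difference was 0.39 without the ZT6 and ZT18 libraries, 0.21 within them and 0.31 with the i5 index as a covariate (adjusted p = 0.397). Single libraries decided whether a gene passed. Without replicate 2 of the mutants at ZT2 Lrp8 reached an adjusted p of 0.0339. Tfrc reached 0.0341 without replicate 1 of the controls at ZT22 and 0.0375 without replicate 1 of the mutants at ZT6.

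The caveolar genes came next. Plvap (chr8:71497765-71511752, minus strand) is known from leaky vessels and fenestrated endothelium such as that of the choroid plexus, and is low in the mature barrier. It had 416 to 2712 reads in controls (median 1675.5) and 1048 to 3916 in mutants (median 1751). The groups overlapped over most of their range, and the coefficient of variation was 44.7% in controls and 46.4% in mutants. The log2 fold change was 0.42 ± 0.19 (unadjusted p = 0.0315, edgeR adjusted p = 0.639). The library with the highest choroid plexus and ependyma markers, control ZT22 replicate 2 with 9998 CPM against at most 2866 in the others, had the lowest Plvap count of all, 416 reads. That is a single library, and what choroid plexus endothelium contributes to Plvap was not tested. The log2 fold change of Plvap was 0.47 without the ZT6 and ZT18 libraries and 0.31 within them. It was 0.57 with the i5 index as a covariate (adjusted p = 0.579), and 0.85 with the index and without those libraries (0.745). The 0.85 rests on ZT14 and ZT22. At ZT14 the controls had 708 and 1048 reads and the mutants 3291 and 1456. At ZT22 they had 1809 and 416 against 1189 and 1663. Without ZT14, a setting added after the data were seen, the log2 fold change was 0.24 (edgeR unadjusted p = 0.203, adjusted p = 0.91).

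Cav1 (chr6:17306335-17341452) and Cav2 (chr6:17281185-17289115) lie 17220 bases apart on the plus strand and encode the caveolins, Cav1 being the one that caveolae require. Cav1 had 702 to 1650 reads in controls (median 988) and 846 to 1652 in mutants (median 1126.5), with ranges that overlapped over most of their length. Its log2 fold change was 0.08 ± 0.09 (edgeR adjusted p = 0.919), with an approximate 95% interval from −0.09 to 0.26, and was 0.20 without the ZT6 and ZT18 libraries (adjusted p = 0.899), −0.16 within them and 0.055 with the i5 index as a covariate. With the index and without those libraries it was 0.28 (0.868). Cav2 had 509 to 1442 reads in controls (median 766) and 501 to 1429 in mutants (median 1010). Both mutants were above both controls at 3 of 6 times, and 7.81% of all genes had 3 or more such times. These were ZT2, with 614 and 618 reads in controls and 975 and 1247 in mutants, ZT6 and ZT22. The log2 fold change of Cav2 was 0.29 ± 0.13 (unadjusted p = 0.0295, edgeR adjusted p = 0.635), 0.37 without the ZT6 and ZT18 libraries, 0.14 within them and 0.13 when the i5 index was a covariate.

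Mfsd2a (chr4:122946850-122961188, minus strand), which brings lysophospholipids carrying omega-3 fatty acids into the brain, had 675 to 1987 reads in controls (median 1325) and 760 to 2173 in mutants (median 1187.5). The mutant mean was higher at 3 times and lower at 3, and at no time did the pairs separate. Its log2 fold change was −0.10 ± 0.12 (edgeR adjusted p = 0.931), with an approximate 95% interval from −0.34 to 0.13. It was −0.20 without the ZT6 and ZT18 libraries, and the sign turned within them (0.071) and with the i5 index as a covariate (0.062).

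Among the growth factor receptors, Insr (chr8:3122061-3279617, minus strand) carries insulin across the barrier. It had 1665 to 3129 reads in controls (median 2716) and 1883 to 3423 in mutants (median 2520.5). Its log2 fold change was −0.01 ± 0.07 (edgeR adjusted p = 0.995), with an approximate 95% interval from −0.15 to 0.13. Without TMM factors it was 0.0030, so that no direction can be given. Igf1r (chr7:67952827-68233668, plus strand), the receptor of IGF-1, had 4594 to 10188 reads in controls (median 7058) and 3739 to 10090 in mutants (median 5767). Both mutants lay below both controls at ZT2, ZT10 and ZT22 (3 or more such times in 7.12% of all genes). The log2 fold change was −0.19 ± 0.10 over all libraries (edgeR adjusted p = 0.766). It was −0.35 without the ZT6 and ZT18 libraries (unadjusted p = 0.000948, adjusted p = 0.196) and 0.10 within them. At those remaining times the i5 index differed between genotypes at ZT2 and ZT10, and with the index as a further covariate the difference was −0.19 (adjusted p = 0.888). Over all libraries the index as a covariate brought it to −0.049 (0.973).

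Lrp1 (chr10:127538161-127621148, minus strand) clears amyloid-β and many other ligands, and it is also expressed by microglia, pericytes and astrocytes. It had 1391 to 7208 reads in controls (median 3796.5) and 1852 to 6970 in mutants (median 4427). The log2 fold change was 0.20 ± 0.11 (edgeR adjusted p = 0.787), 0.05 without the ZT6 and ZT18 libraries and 0.49 within them. In those 8 libraries the mutants had 1979 and 2475 reads at ZT6 and 1852 and 2040 at ZT18, all above the controls' 1391 and 1456 at ZT6 and 1632 and 1548 at ZT18 (unadjusted p = 0.000449, edgeR adjusted p = 0.222). Microglial markers in the same libraries summed to 167 to 274 CPM in controls and 180 to 216 in mutants. Pericyte markers there summed to 2149 to 3107 CPM in controls and 2860 to 3582 in mutants, and astrocyte markers to 796 to 958 and 747 to 1215. Their part in the difference was not tested. Ager (chr17:34597862-34600936, plus strand), which is known to bring amyloid-β into the brain, was near the detection limit with 0 to 33 reads in controls and 0 to 38 in mutants. Its log2 fold change of −0.19 ± 0.65 (edgeR adjusted p = 0.984) had an approximate 95% interval from −1.47 to 1.08.

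**Figure D2:**
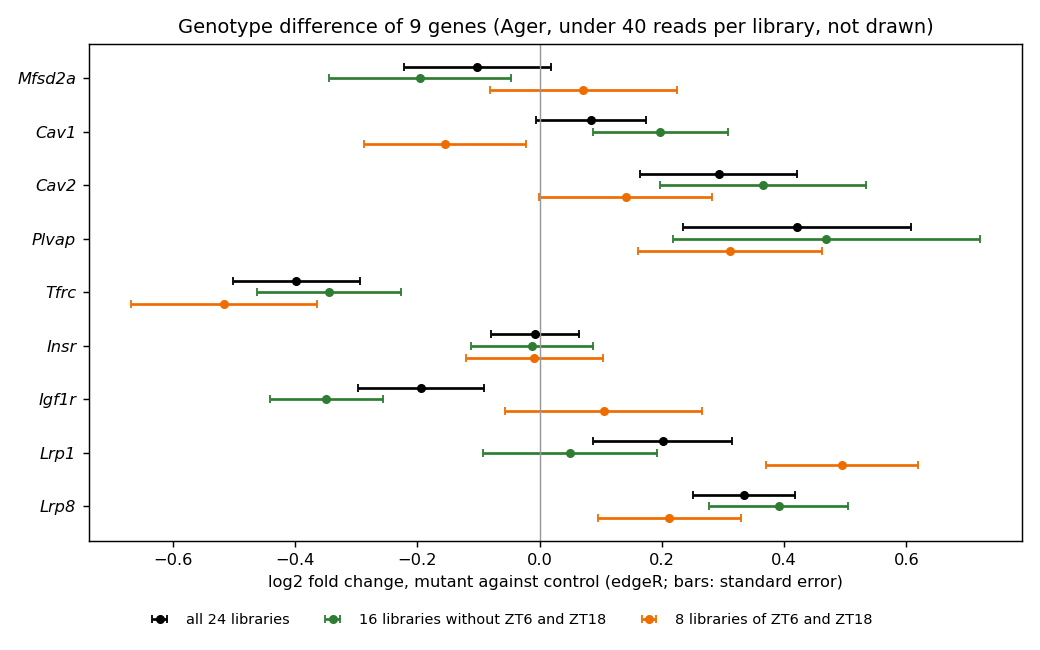
Log2 fold change of mutants against controls (horizontal axis; bars, standard error of edgeR) for 9 of the 10 genes, over all 24 libraries, without ZT6 and ZT18, and within ZT6 and ZT18 alone. Tfrc lies left of 0 and Cav2, Plvap, Lrp1 and Lrp8 right of 0 in each set, Insr lies at 0, while Mfsd2a, Cav1 and Igf1r change side.

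Ratios within a library do not depend on its scaling. The log2 ratio of Cav1 to Cav2 was 0.41 ± 0.30 in controls and 0.20 ± 0.38 in mutants (SD, n = 12 each; exact permutation of genotype within times, two-sided, adjusted over 3 ratios, p = 0.237). Mfsd2a to Cav1 stood at 0.31 ± 0.63 and 0.14 ± 0.46 (exact adjusted p = 0.327). Insr to Igf1r stood at −1.43 ± 0.29 in controls and −1.25 ± 0.28 in mutants (exact adjusted p = 0.237). None of the 3 ratios separated the genotypes over all libraries. Without ZT6 and ZT18 the Insr to Igf1r ratio was higher in mutants by 0.34 (exact permutation, adjusted p = 0.0185), and without replicate 1 of the mutants at ZT6, the library with 10090 Igf1r reads, by 0.26 (0.0419). Of the 4 times other than ZT6 and ZT18, ZT2 and ZT10 had a different i5 index in each genotype, and there genotype and index cannot be told apart.

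Time of day was tested across both genotypes (edgeR, time as a factor of 6 levels, 5 degrees of freedom). Of the 10 genes 8 changed with time at an adjusted p under 0.05, all but Lrp8 (0.139) and Ager (0.692), against 13.4% of all genes tested. Without those libraries 2 of the 10 were called, Igf1r and Insr, against 1.14% of all genes. At an unadjusted p under 0.05 it was 4 of 10, with Mfsd2a and Tfrc besides, against 10.1%.

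**Figure D3:**
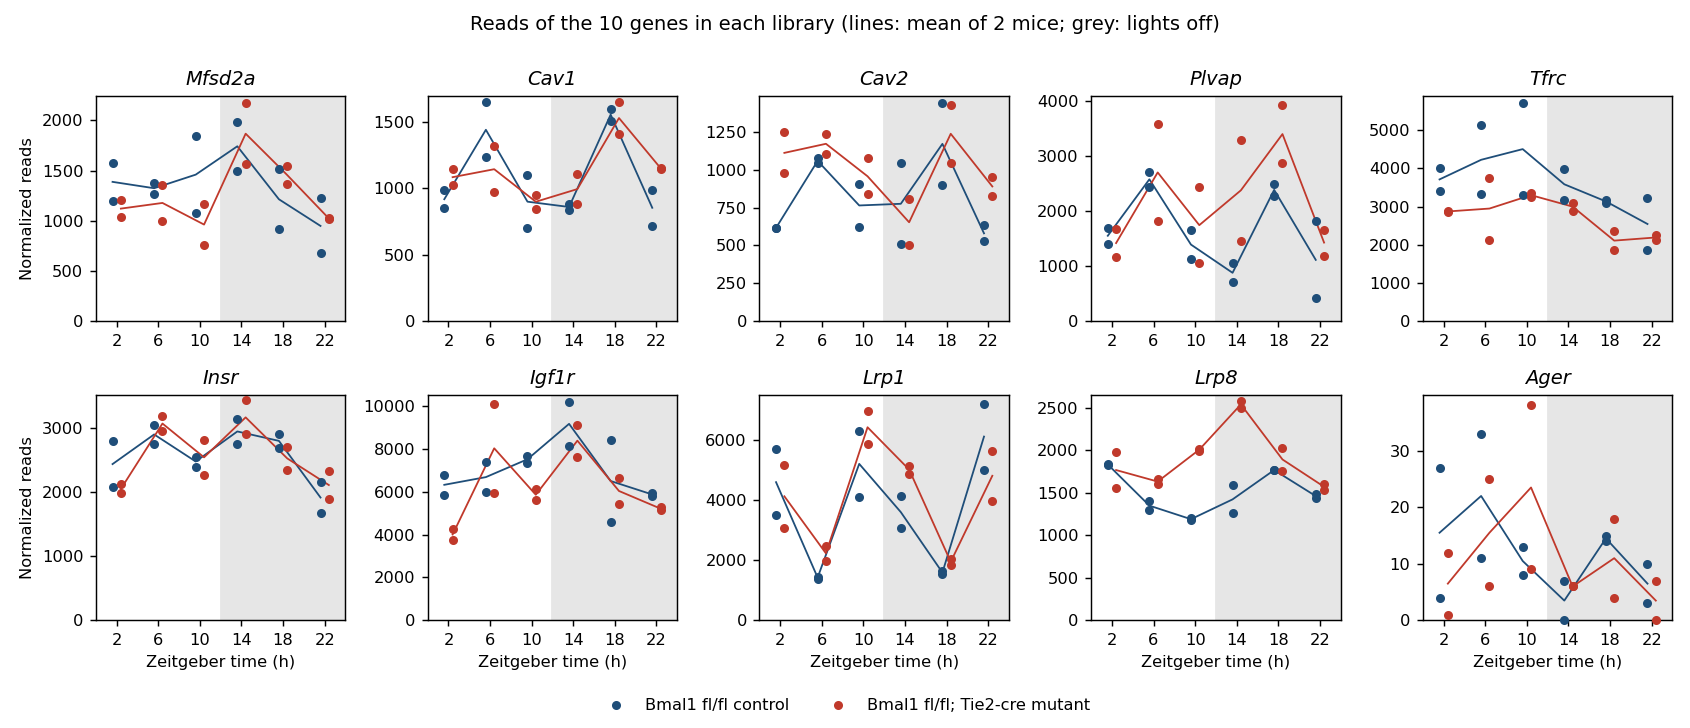
Normalized reads of each gene by Zeitgeber time in hours, 1 point per mouse, control in blue and mutant in red, with lines through the means of 2 mice and the dark phase in grey. Lrp1 is low and Cav2 and Plvap are high at ZT6 and ZT18, as is Cav1 except in mutants at ZT6 (971 and 1319 reads), Igf1r and Insr are highest at ZT14, and Lrp8 in mutants is highest at ZT14.

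Lrp1 had 1391 to 2475 reads (median 1742) in the 8 libraries of ZT6 and ZT18 and 3057 to 7208 (median 5077.5) in the other 16. The 2 sets did not overlap, as for 2.38% of all genes that were lower in ZT6 and ZT18, and the others were 2.77-fold higher on average. The adjusted p of Lrp1 over time was 1.81e-08, and 0.672 without ZT6 and ZT18. Cav1 went the other way, with 971 to 1652 reads (median 1460) against 702 to 1156 (median 970), and 7 of the 8 libraries lay above all others. Plvap had 1826 to 3916 reads (median 2603.5) against 416 to 3291 (median 1430), and Cav2 899 to 1442 (median 1089.5) against 501 to 1247 (median 816), both with overlap. On average these 8 libraries had 1.48-fold the reads of the others for Cav1, 1.46-fold for Cav2 and 1.86-fold for Plvap. Their adjusted p-values over time were 0.00088, 0.0478 and 0.0191, and 0.979, 0.959 and 0.967 without ZT6 and ZT18. With the summed markers of other cell types as a covariate, Lrp1 kept an adjusted p of 0.0175, while Cav1 (0.505), Cav2 (0.994) and Plvap (0.967) did not pass. Cav2 lost its call in 16 of 24 runs with 1 library left out (adjusted p from 0.00088 to 0.15). Plvap lost its call without replicate 1 of the mutants at ZT18 (0.0601). Under another low-count filter the adjusted p of Cav2 was 0.0526, and DESeq2 gave 0.0652 for Plvap. With the i5 index as a covariate Cav2 (0.175) and Plvap (0.72) did not pass, while Cav1 (0.0495) and Lrp1 (1.11e-05) did. What other cell types contribute to these levels was not tested.

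**Figure D4:**
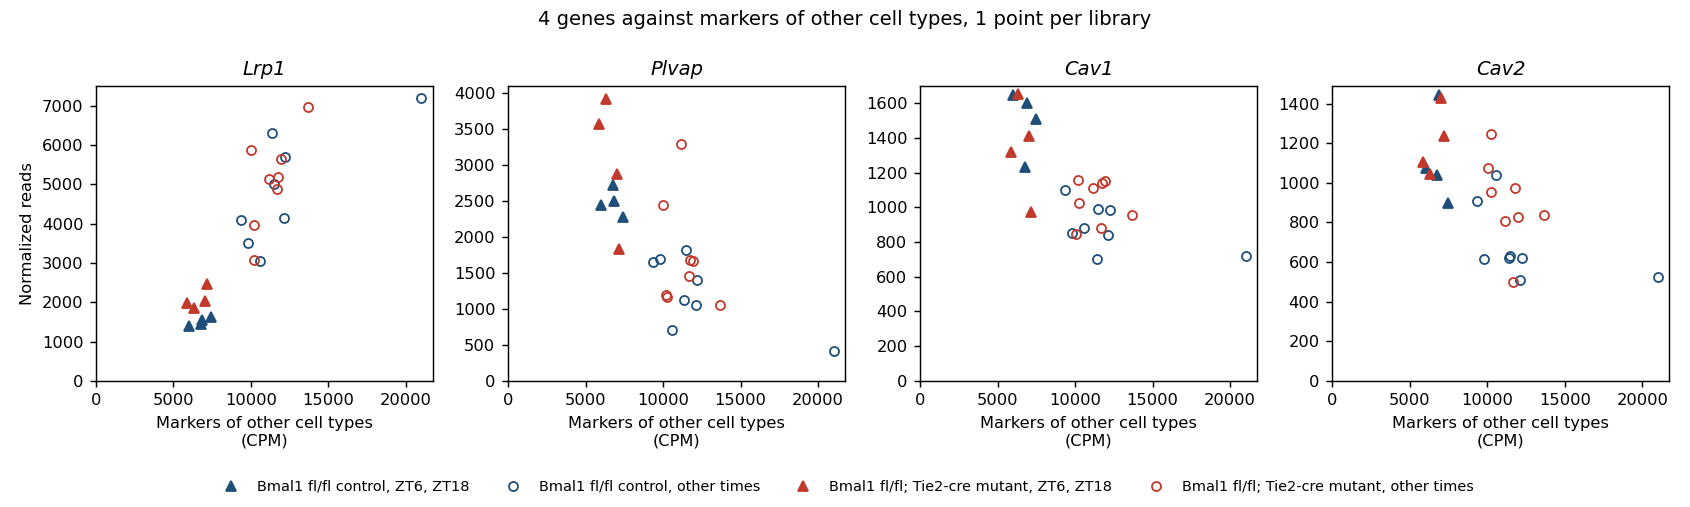
Normalized reads of Lrp1, Plvap, Cav1 and Cav2 against the summed markers of 10 other cell types (CPM), 1 point per library, filled triangles for ZT6 and ZT18. The triangles sit at 5881 to 7448 CPM, with low Lrp1 and, on average, higher Cav1, Cav2 and Plvap.

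Igf1r and Insr were highest at ZT14. The ZT14 libraries stood apart too. The controls had the highest mitochondrial shares (17.4% and 15.3%) and the lowest TMM factors (0.873 and 0.896). The mutants had library numbers of a lower run, shared with replicate 1 of the controls at ZT2. Among controls, only the ZT14 and ZT22 libraries had i5 index B. What part these traits have in a ZT14 peak was not tested. In a time fit without ZT14, added after the data were seen, Igf1r (edgeR adjusted p = 0.166) and Mfsd2a (0.605) did not pass. Insr (0.0102) and Tfrc (0.0277) passed in that fit. Insr also had a higher mean in the ZT6 and ZT18 libraries (2818 reads) than in the others (2450). Without ZT6 and ZT18, Igf1r had 7625 to 10188 reads at ZT14 and 3739 to 6773 at ZT2, and the means differed 1.70-fold (adjusted p = 0.000844). In mutants alone the means at these times differed 2.09-fold, with 7625 and 9119 reads at ZT14 and 4261 and 3739 at ZT2, and in controls the lowest of the 4 remaining times was ZT22, 1.56-fold below ZT14, with 5785 and 5945 reads. Insr had 2751 to 3423 reads at ZT14 and 1665 to 2329 at ZT22, a 1.52-fold difference of means (adjusted p = 0.0366). Neither pair of ranges overlapped, but these times were picked as the highest and lowest from the same values. The ranges of Mfsd2a, Tfrc and Ager did not overlap between their highest and lowest times either. The share over all genes is not given here. Mfsd2a had 1499 to 2173 reads at ZT14 and 675 to 1224 at ZT22 (1.83-fold; adjusted p = 0.0275 with and 0.0674 without ZT6 and ZT18). In controls Mfsd2a was lowest at ZT22 (mean 949.5) and in mutants at ZT10 (mean 963), with the highest mean at ZT14 in both. Tfrc had 3241 to 5716 reads at ZT10 and 1874 to 3218 at ZT22 (1.65-fold; 0.0244 and 0.109). In controls its mean was highest at ZT10 (4507 reads) and lowest at ZT22 (2546). In mutants it was highest at ZT10 (3301.5) and, over all 6 times, lowest at ZT18 (2111), with 2193.5 at ZT22. Markers of other cell types as a covariate left Igf1r at an adjusted p of 0.015, Insr at 0.0047, Mfsd2a at 0.0606 and Tfrc at 0.0562. The call of Mfsd2a, lost without ZT14, depended on single libraries too. It was lost without replicate 2 of the controls at ZT14 (0.109) or replicate 1 of the controls at ZT22 (0.053). Leaving out replicate 2 of the mutants at ZT14 gave 0.149. The call of Tfrc was lost without replicate 2 of the controls at ZT10 (0.0508) or replicate 1 of the controls at ZT22 (0.0665). With the i5 index as a covariate Tfrc was at 0.0511. Without TMM factors Mfsd2a was at 0.0687. Without replicate 1 of the controls at ZT14, Lrp8 passed (0.0368).

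An equal shift at ZT6 and ZT18, which are 12 h apart, cancels out of a 24-h cosine, so that a cosine fitted to both genotypes was a further view of the same libraries. At an unadjusted p under 0.05 it called 4 of the 10, Tfrc (0.000744), Igf1r (0.00318), Insr (0.00332) and Mfsd2a (0.0307), against 5.18% of all genes, and 0 passed adjustment. With a term for the ZT6 and ZT18 libraries in the same fit, Tfrc passed (adjusted p = 0.043), 1 of the 10 against 0.729% of all genes, and Insr had an adjusted p of 0.0706. The fitted peaks in controls were at ZT8.4 for Tfrc, ZT12.4 for Igf1r, ZT11.5 for Insr and ZT11.1 for Mfsd2a. In mutants they were at ZT8.6, ZT11.9, ZT11.4 and ZT15.3.

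Rhythms were also tested within each genotype by meta2d, the method of the study, which merges the p-values of JTK_CYCLE and of a Lomb-Scargle periodogram at a 24-h period. In controls 0 of the 10 genes had an unadjusted p under 0.05, against 2.43% of all genes, and 0 had a q under 0.6, against 0.31%. The smallest value was that of Lrp8 (a p of 0.153). A cosine fitted to the 12 controls with edgeR gave an unadjusted p of 0.0298 for Tfrc and 0.0365 for Igf1r, 2 of the 10 under 0.05 against 4.43% of all genes. The relative amplitude of the fitted cosine in controls ran from 1.93% of the mean for Cav1 to 24.5% for Tfrc among the 9 genes other than Ager. In mutants 1 of 10, Lrp8, had an unadjusted meta2d p under 0.05 (0.024), against 2.27%, and 0 had a q under 0.6, against 0.0387%. On TMM-scaled values Lrp8 was not under 0.05. It was in 7 of 12 runs with 1 mutant library left out. The edgeR cosine in the 12 mutants gave an unadjusted p of 0.00999 for Lrp8, 0.0191 for Tfrc and 0.0358 for Insr, 3 of the 10 against 4.16%. Leaving out 1 library raised the count to 3 in mutants (without replicate 2 at ZT6, Cav1, Tfrc and Lrp8), brought in Igf1r (0.00314, without replicate 1 at ZT6) or Insr (0.0389, without replicate 2 at ZT10) in mutants, and raised the count to 1 in controls (Igf1r without replicate 2 at ZT18; Lrp8 without either replicate at ZT22).

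The difference in 24-h pattern between genotypes was tested directly as an interaction with a cosine and a sine (edgeR, 2 degrees of freedom). Of the 10, Lrp8 alone was under an unadjusted 0.05, against 4.26% of all genes. Its unadjusted p was 0.00435 and its edgeR adjusted p 1.00. Without ZT6 and ZT18 the unadjusted p was 0.0128. In controls Lrp8 was lowest at ZT10, with 1203 and 1178 reads, and highest at ZT2, with 1828 and 1841. In mutants it was highest at ZT14, with 2497 and 2584 reads, and lowest at ZT22, with 1609 and 1535. At ZT10 the mutants had 1996 and 2021 reads and at ZT14 the controls had 1259 and 1588. The pairs were thus well apart at both times. The i5 index differed between genotypes at ZT10, so genotype and index cannot be told apart there. At ZT2 and ZT18 the pairs overlapped, with 1828 and 1841 reads in controls and 1560 and 1977 in mutants at ZT2, and 1771 and 1766 reads in controls and 2027 and 1759 in mutants at ZT18. The fitted peak was at ZT22 in controls and ZT13.5 in mutants. The ZT14 libraries, described above as standing apart, had mitochondrial shares of 17.4% and 15.3% in controls and 7.89% and 10.7% in mutants. Without ZT14 the unadjusted p of the rhythm difference of Lrp8 was 0.0227, and the genotype log2 fold change of Lrp8 was 0.25 (edgeR adjusted p = 0.538).

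The other genes of these routes were taken from 6 lists of 99 genes, of which 94 were tested. In the genotype comparison 0 of the 94 passed an adjusted p of 0.05 (edgeR), against 0.271% of all genes. At an unadjusted p under 0.05, 7 were higher and 7 lower in mutants, 14.9% of the 94 against 6.95% of all genes. Over time 33 of 94 passed, 35.1% against 13.4% of all genes. Without ZT6 and ZT18, 1 of 94 passed (Slc7a5), 1.06% against 1.14% of all genes. The counts over time given with each list include those libraries. In the caveolar coat list (13 tested, 4 changed with time), Cavin1 and Cavin2, the cavins that coat caveolae together with caveolins, had the highest levels per kb. Cavin1 had 4770 ± 1057 reads in controls and 4735 ± 1116 in mutants, and Cavin2 2515 ± 700 and 2462 ± 602 (SD, n = 12). Ehd2, the ATPase at the caveolar neck, had 1273 ± 318 reads in controls and 1556 ± 380 in mutants (log2 fold change 0.28 ± 0.09, edgeR adjusted p = 0.28). Cavin1, Cavin2 and Ehd2 had higher means in the ZT6 and ZT18 libraries, as Cav1 and Cav2 did. Flot2, a flotillin of lipid microdomains, had 181 ± 33.2 and 130 ± 32.5 (−0.48 ± 0.15, 0.33).

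In the clathrin list (21 tested, 4 changed with time), the light chain Cltb had 1228 ± 196 reads in controls and 1004 ± 257 in mutants (log2 fold change −0.32 ± 0.08, edgeR adjusted p = 0.0972). The heavy chain Cltc had 4789 ± 375 and 4968 ± 553, and the light chain Clta 1172 ± 274 and 1100 ± 199. The adaptor Dab2 had 887 ± 179 and 757 ± 108 (adjusted p = 0.554). In the iron list (15 tested, 4 changed with time), Slc40a1, the iron exporter ferroportin, had 1790 ± 415 reads in controls and 1483 ± 232 in mutants (−0.26 ± 0.08, adjusted p = 0.282). Fth1, the ferritin heavy chain, had 3336 ± 957 and 2914 ± 727 (−0.19 ± 0.08, 0.607), and the ferritin light chain Ftl1 1211 ± 316 and 1192 ± 268.

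In the insulin and IGF list (16 tested, 7 changed with time), the adaptors Grb14 and Irs2 had the smallest p. Grb14 had 709 ± 126 reads in controls and 861 ± 123 in mutants (edgeR adjusted p = 0.385), and Irs2 123 ± 67.9 and 175 ± 45.9 (0.398). Igfbp7 and Igfbp3, binding proteins of IGFs, had the highest levels per kb. Igfbp7 had 2704 ± 605 and 2361 ± 523 reads, and Igfbp3 1084 ± 475 and 1274 ± 599. In the list of lipoprotein receptors and their partners (15 tested, 6 changed with time), the sorting receptor Sorl1 had 244 ± 166 reads in controls and 182 ± 110 in mutants (edgeR adjusted p = 0.643). The chaperone Lrpap1 had 738 ± 138 and 719 ± 82.5, and Lrp5 1375 ± 179 and 1448 ± 300. Sorl1 averaged 57.6 reads in the ZT6 and ZT18 libraries and 290 in the others. Among other receptors and genes linked to low transcytosis (14 tested, 8 changed with time), basigin (Bsg), by far the most abundant, had 26391 ± 7204 reads in controls and 31100 ± 5473 in mutants (log2 fold change 0.27 ± 0.08, adjusted p = 0.275). Cd320, the receptor for transcobalamin, had 80.2 ± 20.2 and 113 ± 33.8 (0.584), and the amino acid transporter Slc7a5 6754 ± 1478 and 6365 ± 1912.

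The genes whose log2 levels followed 4 of the 10 most closely over the 24 libraries were picked by Pearson's r among 7712 genes with a mean of 100 reads or more. The libraries share time points and composition, so the r are descriptions. Mfsd2a was closest to Slc2a1, the glucose transporter of the barrier (r = 0.81), Slc3a2 (0.789) and Rgs12 (0.769), and the r were 0.863, 0.846 and 0.804 in the 16 libraries without ZT6 and ZT18. Cav1 was closest to Clec14a (0.881), Ehd2 (0.853) and Pecam1 (0.853), with r of 0.722, 0.828 and 0.657 in the 16. Tfrc was closest to Tiam1 (0.847) and to the clock genes Nr1d2 (0.802) and Per3 (0.741), with r of 0.847, 0.775 and 0.67. Plvap was closest to Plpp1 (0.926), Cd24a (0.925) and Btnl9 (0.916), with r of 0.897, 0.918 and 0.855.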

How the data were processed

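The members and the gene lists were chosen with earlier results of these data known. Per the labels and the study's methods, strand-specific total RNA libraries were aligned to GRCm38 with STAR 2.5.3a and handled with SAMtools 1.3.1. The authors counted reads on Ensembl genes with PORT, which resamples reads to bring libraries to similar totals, and deposited the result as whole-number counts per gene. These counts were used as deposited (24 columns, 0 of another series). Genes on the opposite strand overlap 6 of the 10 members. Whether counting used the strand is not given in the sources used here. The overlapping genes had low counts, the highest being Gtpbp3 at Plvap (mean 71.5 reads). Each group has 2 mice per time.

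Genotype (adjusted for time), time and rhythm difference were fitted with edgeR 4.0.16 in R 4.3.3 with TMM factors. For meta2d an own version in Python 3.11.15 was used (SciPy 1.17.1, NumPy 2.4.6, pandas 2.3.3); figures were drawn with matplotlib 3.10.9. DESeq2 1.42.0 and limma 3.58.1 were alternatives, besides filters, covariates and left-out libraries. Fits were tested on simulated data with larger genotype changes than those of the 10 members. The simulation had a lower dispersion than the common dispersion of the data (0.1794) and no shift at ZT6 and ZT18. No 2 libraries agreed within sampling noise (lowest chi-square per degree of freedom 9.15 over 276 pairs). Exon lengths and positions came from GENCODE vM21 (GRCm38). Named are the 10 members, of each list the 2 genes with the smallest genotype p and the 2 with the highest level per kb, the 3 genes most like each of Mfsd2a, Cav1, Tfrc and Plvap, and Arntl. One gene that this rule would name is not reported here.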

Additional observations from a re-analysis of the deposited data

Results flagged for a closer look

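In the interaction test of edgeR for a difference in 24-h pattern between control and mutant mice, Lrp8 had an unadjusted p of 0.00435 and did not pass adjustment over 15493 genes (adjusted p of 1.00). Of all genes 4.26% were under an unadjusted 0.05 and 0 passed adjustment. With each of the 24 libraries left out in turn the unadjusted p lay between 0.00061 and 0.012, and under the planned settings between 0.00093 and 0.0157. Without ZT14, added after the data were seen, it was 0.0227.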

How the results depend on the processing

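In the genotype comparison the count of 0 called members became 3 with no filter on low counts (Plvap, Tfrc and Lrp8), against 0.56% of all genes. It became 2 with DESeq2 (1.11%), 1 with the replicate block (Tfrc, 0.278%) and 0 to 1 with a library left out (0.161% to 0.439%). The log2 fold change of Mfsd2a turned to 0.071 within ZT6 and ZT18, to 0.062 once the i5 index was a covariate and to 0.063 with the index and without ZT6 and ZT18. That of Cav1 turned to −0.16 and that of Igf1r to 0.10 within ZT6 and ZT18. That of Insr was 0.0030 without TMM factors, 0.029 with the i5 index and 0.077 with the index and without ZT6 and ZT18, and ranged from −0.036 to 0.031 with a library left out, that of Ager from −0.44 to 0.095. The count for time of day, 8 (13.4% of all genes), became 2 without ZT6 and ZT18 (1.14%). It became 5 with the i5 index (Cav2, Plvap and Tfrc lost, 6.72%) and 3 with markers of other cell types (4%). It became 6 without ZT14 (Mfsd2a and Igf1r lost, 11.8%). A shared cosine gave 0 (0.503%), and that cosine with a term for ZT6 and ZT18 gave 1 (Tfrc, 0.729%). The settings of the last 2 sentences were added after the data were seen. With a library left out the count was 5 to 9 (11.8% to 13.6%). The lowest, 5, came without replicate 1 of the controls at ZT22. The count for rhythm difference, 1, became 4 with no filter (6.22% of all genes), 2 without ZT6 and ZT18 (5.74%), 3 with the replicate block (Mfsd2a, Cav2 and Lrp8; 6.44%), 2 with the i5 index (6%) and 2 with the markers (6.51%). For meta2d in controls the count of 0 became 2 with an edgeR cosinor (4.43% of all genes), 2 with a cosinor and replicate block (4.07%), and 0 to 1 with a library left out. In mutants the count of 1 became 0 on TMM-scaled values, 3 with the cosinor (4.16%), 3 with the cosinor and replicate block (3.81%), and 0 to 3 with a library left out. For the ratios, 0 became 1 without ZT6 and ZT18 (Insr to Igf1r) and 0 to 1 with a library left out. Over all genes the 42 genotype calls became 141 with no filter, 99 with DESeq2, 28 without ZT6 and ZT18, 3 within them, 8 without ZT14, 7 with the i5 index and 25 to 68 with a library left out, and the 2070 time calls became 176 without ZT6 and ZT18, 1041 with the i5 index and 620 with the markers. The cause of these shifts was not tested. Same-numbered mice did not deviate together (correlations of −0.01 to 0.01 over the 6 times). The libraries come from more than one independent experiment, and whether the numbers mark these is not given in the sources used here. With the replicate block Tfrc had an adjusted p of 0.0411. Of the 9 steps between neighbouring levels, 4 passed per kb and 0 without ZT6 and ZT18 (added after the data were seen). Without division by length the order itself is another (Igf1r first, Lrp1 next, Plvap after Insr), so that its 5 passing steps are between other pairs, apart from Cav1 and Cav2. Because the original depth is not in the values, the counting error behind each of them is unknown, and for Ager, at 0 to 38 reads, it limits every comparison.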
